A study of Mus musculus with 6 samples.

Results

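The genes described here are 44 that encode chromatin organisers, nucleosome remodellers, histone deacetylases and acetyltransferases, Polycomb proteins, enzymes of DNA methylation and demethylation, and HMG proteins. The list was given by name and includes Satb1, the gene that was disrupted in the study. It was read on every array through the accession of each probe: 42 of the 44 genes had a named probe, out of 20660 genes named on the array, and Chd7 and Kmt2a are not analysed here. These 42 genes had 67 probes, 28 genes with 1 probe and 14 with several, for which the brightest probe over the 6 arrays was used and the others are given where a result turns on them. Cbx8, a Polycomb chromobox protein, was not well above background on any array, which leaves 41 genes with measured levels on all 6 arrays.

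Each of 6 single-colour Agilent arrays held RNA from cells sorted from the fetal liver of C57BL6/J mice at embryonic stage E18.5. The study asked which genes depend on Satb1 in early blood and lymphoid progenitors. The groups were wild type and Satb1-null littermates, with 1 array for each of 3 populations: HSC (lineage negative, c-kit high, Sca-1 positive, Flt3 negative, enriched for stem cells), LMPP (the same gate but Flt3 positive, enriched for lymphoid-primed multipotent progenitors) and CLP (lineage negative, c-kit low, Sca-1 low, IL7 receptor alpha positive, enriched for common lymphoid progenitors). Apart from the null allele the labels give the animals no treatment, and they do not state how the allele was made, how many embryos gave the cells, or whether 1 set of embryos served for all 3 sorts. No group had a second array, so a difference between 2 arrays has no replicate check.

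SATB1 is a nuclear protein that binds AT-rich DNA at the base of chromatin loops and brings chromatin modifying enzymes to its targets, and it is known for its roles in T cells and in lymphoid commitment. CTCF and cohesin form loops, SWI/SNF, ISWI and CHD proteins move nucleosomes, and histone acetyltransferases and deacetylases set opposite marks. Polycomb complexes PRC2 and PRC1 methylate histone H3 and ubiquitinate histone H2A at silenced genes, and blood stem cells need several of their subunits to self-renew.

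Throughout, a level is the log2 of a probe's processed signal minus the array's 75th percentile, so 0 is the level of that percentile. Levels of different probes are not compared, since probes differ in brightness. A difference of 1 on this scale is 2-fold, and the error that the scanner software gives for a difference was 0.204 for most of the genes. Between 52.4% and 57.7% of spots were well above background on each array, and 11018 genes were well above background on all 6 arrays. Il7r, part of the CLP gate, was highest in CLP in both genotypes (1.61 and 1.55), and Flt3, which separates LMPP from HSC, was highest in LMPP (3.21 and 3.32). The lymphoid recombinase gene Rag1 was highest in CLP, whereas Dntt, a terminal transferase of early lymphoid cells, was highest in LMPP in both genotypes. The wild type arrays lay in 1 row of the slide and the null-labelled arrays in the other. Xist was well above background only on the null-labelled arrays. Of 5 sex-linked genes, Xist and the rest Y-linked, those well above background numbered 4, 4 and 4 (wild type HSC, LMPP, CLP) and 5, 3 and 3 (null label). Y-linked genes were thus read beside Xist on the null-labelled arrays. Slide row, the sexes of the embryos and genotype cannot be told apart.

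Satb1 differed between genotypes by less than the scanner error in LMPP and CLP. Its levels, read by 1 probe, were -0.031 in HSC, 2.0 in LMPP and 0.71 in CLP with the wild type label, and -0.59, 1.96 and 0.65 in turn with the null label. The difference, null minus wild type, was -0.56 in HSC with a scanner error of 0.207, -0.035 for LMPP and -0.056 for CLP. The HSC value was thus lower by 1.48-fold, and the level was not lost in any population. Whether the probe lies in the removed part of the transcript is not known from the files, so the level does not check the genotype label, and the arrays are called null-labelled here.

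Across the populations Satb1 was low in HSC, high in LMPP and between these in CLP, in both genotypes. LMPP was above HSC by 2.03 (wild type) and 2.55 (null label), and the CLP minus LMPP difference was -1.29 (wild type) and -1.31 (null label). In a limma model with terms for genotype and for population, fitted to all 6 arrays, the LMPP minus HSC difference was 2.29 ± 0.28 (in such fits ± gives the standard error), a 4.89-fold higher level in LMPP, with an unadjusted p of 0.000497 and a Benjamini-Hochberg adjusted p of 0.295 over 13012 genes. Satb1 thus had the lowest p of the 41 genes in that comparison and did not pass the threshold of 0.05. Its fitted CLP minus LMPP difference of -1.3 ± 0.28 did not pass either (limma adjusted p = 0.058). Of the 41 genes it was the only one past 2-fold between HSC and LMPP in both genotypes (1 of 41, against 3.62% of all genes compared).

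No other gene of the set followed the order of Satb1 (LMPP above CLP above HSC) in both genotypes, an order held by 3.28% of genes well above background on all 6 arrays. The genes whose profile about its own mean lay nearest to that of Satb1, by the root mean square distance over the 6 arrays, were Hdac3 (0.715), Hmgb1 (0.79), Hmgb2 (0.813), Eed (0.827) and Hdac1 (0.841). For scale, the profile of Satb1 itself had a root mean square of 0.952 about its mean. Among all genes, 341 of 11017 (3.1%) lay nearer to Satb1 than Hdac3 did.

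RefSeq lists 5 starts for Satb1 in the promoter table (build GRCm38.p6, each entry running from 250 bases before a start to 50 after it). The start with most CpG dinucleotides is shown because its gene differed by population in both genotypes more than any other of the set between HSC and LMPP. It lies at chr17:51832598-51832897 on the minus strand and holds 45 CpG dinucleotides, which are in capitals, a number reached by 1.93% of all 32851 promoters in the table. The other starts of Satb1 hold 8, 3, 13 and 7, beside a median of 7 over all promoters, so the high rank belongs to the start picked for it.
Satb1: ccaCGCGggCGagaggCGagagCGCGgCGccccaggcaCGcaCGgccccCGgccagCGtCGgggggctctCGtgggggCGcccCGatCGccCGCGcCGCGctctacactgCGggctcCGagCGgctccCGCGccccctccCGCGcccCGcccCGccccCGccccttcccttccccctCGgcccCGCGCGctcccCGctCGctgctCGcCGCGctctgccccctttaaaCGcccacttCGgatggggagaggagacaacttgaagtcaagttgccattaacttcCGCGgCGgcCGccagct

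**Figure D1:**
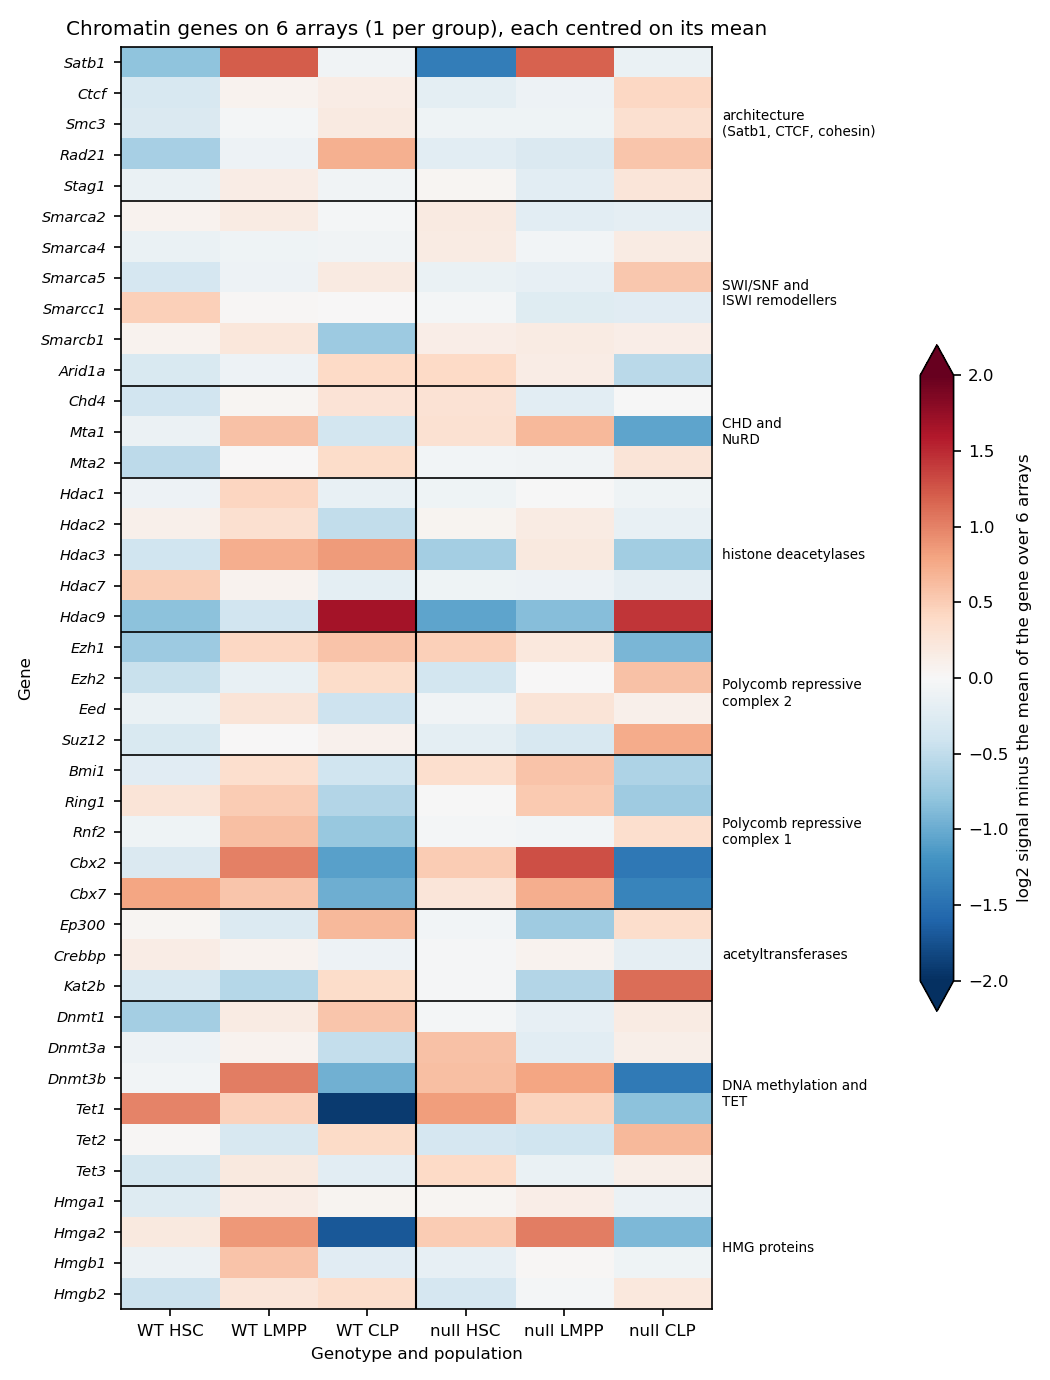
Levels of the 41 measured genes on the 6 arrays, each as its difference from the gene's own mean (log2 scale, colour), with genes in rows by protein group and arrays in columns by genotype and population. Satb1 is highest in both LMPP columns, Hdac9 in both CLP columns, and Hmga2, Dnmt3b, Tet1, Cbx2 and Cbx7 are lowest in both CLP columns.

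Between genotypes few genes of the set differed by 2-fold. In HSC, 1 of the 41 genes was past 2-fold, against 14.3% of all genes compared and 8.25% of those well above background on all 6 arrays, which is the measure that all 41 genes meet. In LMPP the count was 0 of 41, against 9.57% and 4.72%. In CLP it was 4 of 41, against 20.2% and 14.4%. For HSC, LMPP and CLP the median difference of the 41 genes was 0.11, -0.15 and -0.056, beside 0.14, -0.036 and 0.029 over all genes compared.

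A difference common to the 3 populations was tested in the limma fit, and 0 of the 41 genes passed at an adjusted p of 0.05, with 0 also at an unadjusted p of 0.05. Of all 13012 genes, 1 passed (0.00769%), Xist, and 730 had an unadjusted p under 0.05. The lowest adjusted p of the set was 0.84, for Hdac3. The fit asks only for a shift shared by HSC, LMPP and CLP; with 1 array per group, a shift in 1 population has no test.

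Mean levels of the 6 B lineage markers were -4.12, -4.6 and -0.81 (wild type HSC, LMPP, CLP) and -2.19, -1.98 and 0.69 (null label), above wild type in each null-labelled population. Of the 6, those well above background numbered 2, 2 and 5 (wild type HSC, LMPP, CLP) and 4, 5 and 6 (null label). The wild type HSC and LMPP means lay below the lowest level well above background on those arrays (-4.03 and -4.04), so these 2 differences rest partly on background readings. In LMPP the median null minus wild type difference was 2.4 over the 5 erythroid markers compared, 1.79 over 5 megakaryocyte and 2.2 over 4 macrophage markers. In CLP all 5 megakaryocyte markers were lower on the null-labelled array (median -0.82). The part of these markers in the differences that follow was not tested.

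Hdac3, the catalytic deacetylase of the NCoR and SMRT corepressor complexes, had its widest genotype difference in CLP. Its levels, read by 1 probe, were 0.79, 1.91 and 2.04 (wild type HSC, LMPP, CLP) and 0.51, 1.38 and 0.49 (null label, same order). The null-labelled value was below that of wild type in all 3 populations, with differences of -0.28 for HSC and -0.54 for LMPP, and of -1.55 for CLP, a 2.93-fold lower level. In wild type, LMPP and CLP were alike and both above HSC. On the null-labelled arrays, CLP was as low as HSC.

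Ezh1, a PRC2 methyltransferase typical of cells that divide little, differed in opposite directions in HSC and CLP. Its levels were 0.99, 2.13 and 2.29 (wild type HSC, LMPP, CLP) and 2.2, 1.93 and 0.80 (null label, same order). The null-labelled level was 2.31-fold higher in HSC (difference 1.21), close to that of wild type in LMPP (-0.20) and 2.8-fold lower in CLP (-1.48). Ezh1 had 2 other probes. The one well above background on all 6 arrays gave 0.50 in HSC and -0.14 in CLP, and the other, well above background on 3 arrays only, both HSC arrays among them, gave -0.31 in HSC. With the mean over probes the HSC difference of Ezh1 was 0.47, under 2-fold.

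Rnf2, the PRC1 subunit that ubiquitinates histone H2A, and Tet1, a dioxygenase that oxidises 5-methylcytosine, were higher in null-labelled CLP. The levels of Rnf2 were 0.49, 1.16 and -0.19 (wild type HSC, LMPP, CLP) and 0.53, 0.52 and 0.90 (null label, same order). Its null minus wild type difference was 1.09 in CLP and -0.65 in LMPP, so the directions were opposite, while HSC differed by 0.038. The levels of Tet1 were 2.71, 2.18 and -0.19 (wild type HSC, LMPP, CLP) and 2.56, 2.17 and 0.90 (null label, same order). Tet1 was 2.13-fold higher in null-labelled CLP, its second probe also differed by 1.08, and in LMPP the genotypes differed by -0.0027. With normexp background correction both differences in CLP were under 2-fold, at 0.92 for Rnf2 and 0.91 for Tet1.

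At the lower mark of 1.5-fold, 8 genes (19.5%) were past it in HSC. Taken either way, 32.7% of all genes compared were past it, and 25.3% of those well above background on all 6 arrays. All 8 had a null minus wild type difference above 0. In that direction alone, the shares were 19% and 15.7% in turn. By its brightest probe, Hdac7 fell just short of the mark in the other direction (-0.58, 1.499-fold). Satb1, Cbx7 and Smarcc1 followed at -0.56, -0.53 and -0.51. Satb1 was past 1.5-fold lower with the percentile over detected probes (-0.70) and with the deposited constants (-0.66). The 1-sided count thus depends on the mark and the scaling. The 8 genes were Ezh1, 3 genes of DNA methylation (Dnmt1, 0.64; Dnmt3a, 0.69; Dnmt3b, 0.66), the demethylating enzyme Tet3 (0.76), the NuRD helicase Chd4 (0.68), the SWI/SNF subunit Arid1a (0.71) and Cbx2 (0.81). All genes compared had a median of 0.14 in HSC, and the other scalings tried moved that median to between 0.0049 and 0.32, so these differences are best read relative to it. A second probe of Arid1a gave 0.069, and the 2 other probes of Dnmt3b gave 0.23 and 0.36. Another probe of Tet3, well above background on all 6 arrays, gave 0.26, under 1.5-fold. In LMPP, Rnf2 alone was past 1.5-fold (1 of 41, against 22.9% of all genes compared).

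Genes with several probes give 1 measure of how far a single reading holds. Null minus wild type differences had the same sign over all measured probes in 8 of 14 genes in HSC, 9 of 14 in LMPP and 9 of 14 in CLP. The median span between a gene's highest and lowest probe was 0.38, 0.26 and 0.42 in these populations. Hmgb1, an abundant DNA-bending protein, had 7 probes, whose LMPP differences all lay below 0, between -0.55 and -0.086. Hmga2 differed by 0.80 in CLP by its brightest probe and by 1.27 by its other.

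**Figure D2:**
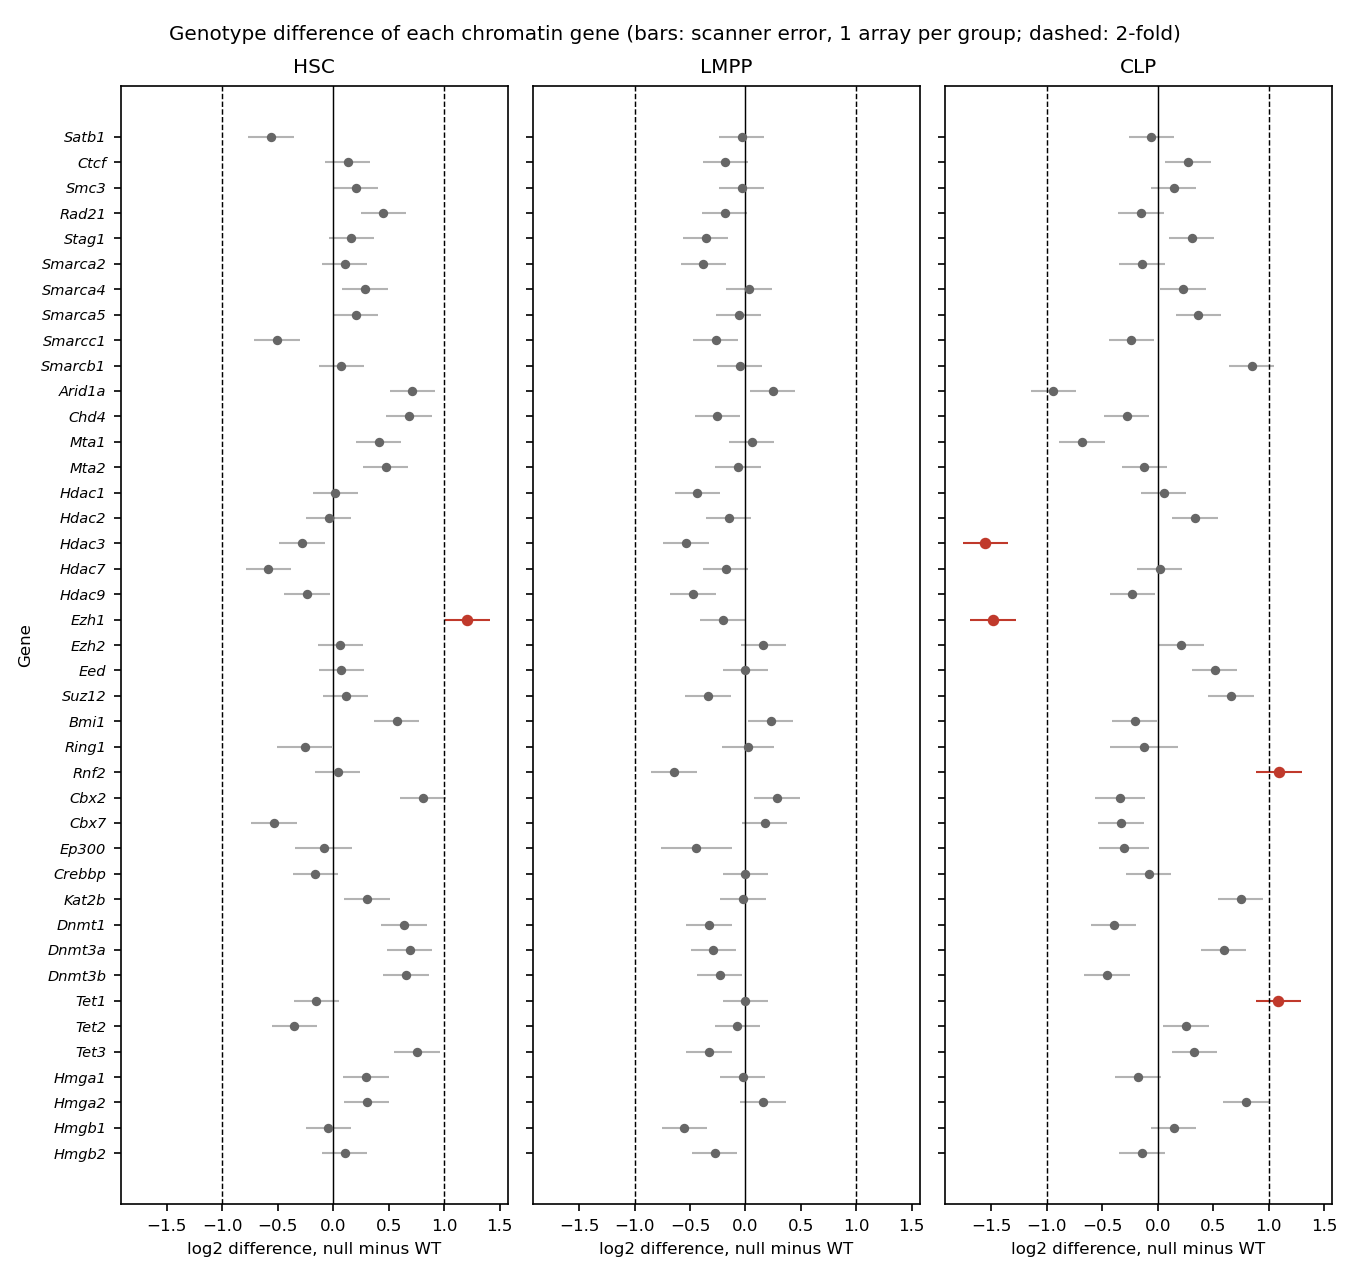
Difference of log2 levels, null-labelled minus wild type, for each of the 41 measured genes in HSC, LMPP and CLP, with the scanner error as bars and lines at 2-fold. Hdac3 and Ezh1 fall below the lower line in CLP, Rnf2 and Tet1 lie above the upper line in CLP, and Ezh1 lies above it in HSC.

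Between populations, genes of the set passed the test in both comparisons that include CLP. In the limma fit 5 of the 41 genes (12.2%) passed between LMPP and CLP, against 8.79% of the 13012 genes: Hdac9 rose, and Hmga2, Cbx2, Dnmt3b and Cbx7 fell. Without the HSC arrays, which add to the estimate of spread, 0 of the 41 passed, with adjusted p values of 0.0602 to 0.0796 for these 5. By single arrays, 8 of 41 (19.5%) were past 2-fold the same way in both genotypes, against 15.9%. Of these 8, 7 were lower in CLP, against 7.61% of all genes compared and 5.73% of genes well above background on all 6 arrays. The 7 lower genes were 17.1% of the 41.

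The CLP arrays differed from the LMPP arrays in much else. Mean levels of the 6 erythroid markers were -0.76, -1.33 and 3.73 (wild type HSC, LMPP, CLP) and 0.36, 0.29 and 3.94 (null label), and all 6 were well above background on both CLP arrays. Those of the 4 macrophage markers were -4.01, -3.85 and 0.71 (wild type HSC, LMPP, CLP) and -3.9, -1.51 and 1.17 (null label), with 2 of 4 well above background in wild type HSC and LMPP and 4 of 4 on both CLP arrays. The 5 granulocyte and monocyte markers had means of 5.0, 4.46 and 7.04 (wild type HSC, LMPP, CLP) and 5.43, 5.06 and 6.88 (null label). The 5 HSC markers went the other way, with 2.22, 1.95 and -1.71 (wild type HSC, LMPP, CLP) and 2.65, 1.67 and -2.26 (null label), and 18 cell cycle genes had means of 1.65, 2.03 and 2.88 (wild type HSC, LMPP, CLP) and 1.72, 1.9 and 3.0 (null label). The part of these cells in the differences below was not tested, and in RNA of a sorted population fewer cells of a type and less RNA per cell cannot be told apart.

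Hdac9, a class IIa deacetylase that represses MEF2 targets, rose in CLP. Its levels were -0.057, 0.38 and 2.41 (wild type HSC, LMPP, CLP) and -0.29, -0.091 and 2.18 (null label, same order). Both CLP arrays stood above all 4 others, and HSC and LMPP levels lay close together. The CLP minus LMPP difference was 2.15 ± 0.25, 4.45-fold (limma adjusted p = 0.0174), and the CLP minus HSC difference was 2.47 ± 0.25 (limma adjusted p = 0.0155). The other 4 deacetylases measured did not pass in either comparison. Hdac1 and Hdac2, the NuRD and Sin3 deacetylases, had CLP minus LMPP values of -0.56 and -0.81 in wild type and of -0.076 and -0.33 with the null label. Those of Hdac7, a class IIa enzyme, were -0.27 (wild type) and -0.073 (null label).

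Hmga2, an AT-hook protein that marks fetal as opposed to adult stem cells, fell. Its levels were 4.39, 5.05 and 2.49 (wild type HSC, LMPP, CLP) and 4.69, 5.21 and 3.29 (null label, same order). Both CLP arrays lay below all others, and LMPP was the highest population in each genotype. The CLP minus LMPP difference was -2.24 ± 0.29, a 4.73-fold lower level (limma adjusted p = 0.0199), and its second probe gave -3.47 in wild type and -2.11 on the null-labelled arrays. The other 3 HMG genes, Hmga1, Hmgb1 and Hmgb2, did not pass, with fitted differences of -0.18, -0.45 and 0.18.

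Dnmt3b, a de novo DNA methyltransferase, also fell. Its levels were 4.67, 5.74 and 3.76 (wild type HSC, LMPP, CLP) and 5.33, 5.51 and 3.31 (null label, same order). The CLP arrays of both genotypes lay below the other 4. The CLP minus LMPP difference was -2.1 ± 0.36, 4.28-fold (limma adjusted p = 0.0351), and its other probes gave -2.92 and -2.5 for wild type and -2.82 and -2.39 for the null label, so all 3 probes were lower in both genotypes. Dnmt3a, the other de novo enzyme, did not pass (-0.11), nor did Dnmt1, which copies methylation after replication (0.37).

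Tet1 had CLP minus LMPP values of -2.36 (wild type) and -1.27 (null label), with a fitted difference of -1.82 ± 0.39 that did not pass (limma adjusted p = 0.0582). Against HSC it fell in CLP, with a difference of -2.28 ± 0.39, a 4.84-fold lower level in CLP (limma adjusted p = 0.0372). Its second probe gave CLP minus HSC values of -0.81 in wild type and -0.23 on the null-labelled arrays, and CLP minus LMPP values of -1.24 and 0.11. With the mean over probes the CLP minus HSC difference of Tet1 was -1.4 and did not pass (limma adjusted p = 0.0897). Tet2, the TET enzyme often mutated in blood cancers, and the acetyltransferase Kat2b stood the other way. By the brightest probe of each, both were highest in CLP and lowest in LMPP in both genotypes. Their CLP minus LMPP values were 0.71 (wild type) and 1.04 (null label) for Tet2 and 0.94 (wild type) and 1.71 (null label) for Kat2b. Neither passed (limma adjusted p = 0.127 and 0.0642). The second probe of Tet2 gave 0.15 (wild type) and 0.91 (null label). By that probe HSC was the highest population in wild type and the lowest with the null label.

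Most PRC1 genes were lower in CLP than in LMPP. By the brightest probes, 4 of the 5 measured (Ring1, Rnf2, Cbx2 and Cbx7) were at least 2-fold lower in wild type, with a median of -1.35. On the null-labelled arrays 4 (Bmi1, Ring1, Cbx2 and Cbx7) were, with a median of -1.24. Over all genes compared, 17.9% and 14.6% were at least 2-fold lower, and the medians were -0.056 and -0.015. Cbx2 and Cbx7, chromobox proteins that read methylated histone H3, passed the test. The levels of Cbx2 were -0.74, 0.57 and -1.54 (wild type HSC, LMPP, CLP) and 0.069, 0.85 and -1.88 (null label, same order), the CLP minus LMPP difference was -2.42 ± 0.36, 5.34-fold, and the limma adjusted p was 0.0259. Both CLP arrays lay below the other 4.

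The levels of Cbx7 were 1.24, 1.0 and -0.53 (wild type HSC, LMPP, CLP) and 0.71, 1.18 and -0.86 (null label, same order). Its CLP minus LMPP difference was -1.78 ± 0.30, 3.44-fold, with a limma adjusted p of 0.0325, and again the CLP arrays did not overlap with the others. Ring1, the paralogue of Rnf2, was dim but well above background throughout, with levels of -2.07, -1.82 and -2.91 (wild type HSC, LMPP, CLP) and -2.33, -1.8 and -3.04 (null label, same order), and did not pass (limma adjusted p = 0.0589). Bmi1, a PRC1 subunit needed for stem cell self-renewal, had CLP minus LMPP values of -0.75 (wild type) and -1.18 (null label). Its second probe gave -0.28 and -0.86, under 2-fold in both genotypes. The genotypes had opposite signs for Rnf2, at -1.35 (wild type) and 0.39 (null label).

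Of the 4 PRC2 genes, 2 had a fitted CLP minus LMPP difference above 0 and 2 below it. Ezh2, the methyltransferase of dividing cells, was higher in each step from HSC to LMPP to CLP in both genotypes, with fitted CLP minus HSC of 0.88 ± 0.25 (limma adjusted p = 0.101). The fitted CLP minus LMPP values were 0.54 for Ezh2, 0.57 for the core subunit Suz12, -0.42 for Eed, which binds the mark, and -0.48 for Ezh1. None of the 4 passed in any comparison of populations.

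The genes of loop architecture and nucleosome remodelling did not pass in any comparison of populations, Satb1 included. Ctcf and the cohesin subunit Smc3 were in the order CLP above LMPP above HSC in both genotypes, over ranges of 0.74 and 0.62 across the 6 arrays. Rad21, the cohesin subunit cut by separase, was higher in CLP than in HSC by 1.06 ± 0.29 and did not pass (limma adjusted p = 0.0973), and Stag1 ranged over 0.45 by its brightest probe and 1.1 by its other. The catalytic ATPases Smarca4, Smarca2 and Smarca5 and the core subunit Smarcc1 ranged over 0.29, 0.39, 0.87 and 0.72 by the brightest probe of each. The second probe of Smarca4 ranged over 1.03, and the 2 other probes of Smarcc1 over 1.43 and 1.12, with CLP minus LMPP values in wild type of -1.43 and -1.12. None of the SWI/SNF, ISWI, CHD and NuRD genes measured passed in any comparison, and by the brightest probes Mta1 alone of these 9 was past 2-fold between LMPP and CLP, on the null-labelled arrays (-1.69). The acetyltransferase Ep300 was higher in CLP than in LMPP by 0.92 (wild type) and 1.06 (null label), and its partner Crebbp differed by -0.17 (wild type) and -0.25 (null label).

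**Figure D3:**
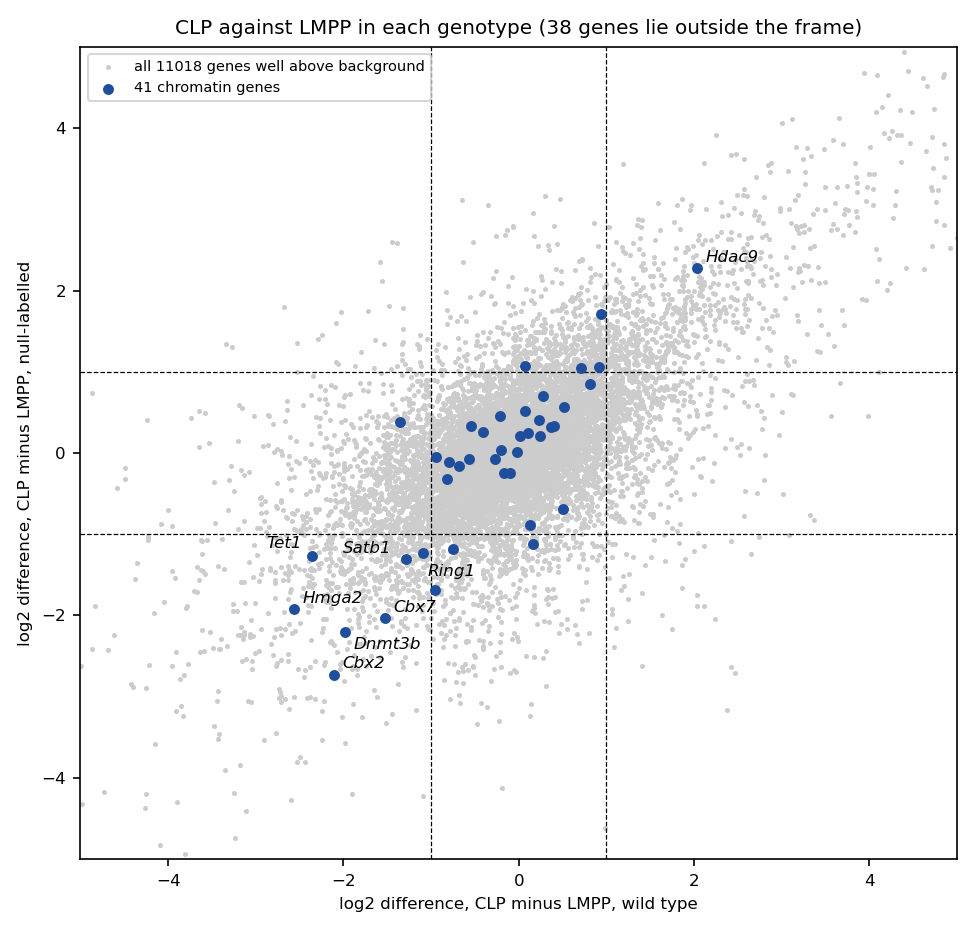
CLP minus LMPP difference of log2 levels in wild type (x axis) against the null-labelled arrays (y axis), with all genes well above background on all 6 arrays as a grey cloud and the 41 genes as dark points, of which 8 are named; 38 genes of the cloud lie outside the frame. Hdac9 lies furthest to the upper right of the set, and Cbx2, Hmga2, Dnmt3b, Tet1, Cbx7, Satb1 and Ring1 lie in the lower left, past 2-fold in both genotypes.

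Against HSC, 4 of 41 genes (9.76%) passed in CLP, against 8.88% of all genes, a share near the background. Without the LMPP arrays 0 passed, with adjusted p values of 0.0635 to 0.101 for these 4. They were Hdac9 and Tet1, given above, Cbx7 (-1.67 ± 0.30, limma adjusted p = 0.0397) and Hmga2 (-1.65 ± 0.29, limma adjusted p = 0.0385). This comparison shares the CLP arrays with the previous one, so the same values of CLP stand in both. The same 4 genes were past 2-fold in both genotypes, against 15.7% of all genes compared. Cbx2 and Dnmt3b, lower in CLP than in LMPP, had CLP minus HSC values of -0.80 (wild type) and -1.95 (null label) for Cbx2 and -0.91 (wild type) and -2.02 (null label) for Dnmt3b, and neither passed. With dim values left at their own level in place of a floor, Hdac9 alone passed against HSC, median centring kept 2 of the 4, and quantile normalization kept 3, without Cbx7 (limma adjusted p = 0.0523). With the mean over probes 4 passed, Dnmt3b in place of Tet1.

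Between HSC and LMPP, 0 of 41 genes passed, nor did any of the 13012 genes (0%); at an unadjusted p of 0.05 there were 2 of the set, Satb1 and Cbx2, and 1106 of all. Cbx2 was higher in LMPP by 1.3 (wild type) and 0.78 (null label). The 9 genes with the order LMPP above HSC above CLP in both genotypes by the brightest probe made up 22.0% of the 41, beside 10.3% of genes. They were Smarcb1, Mta1, Hdac1, Hdac2, Bmi1, Ring1, Cbx2, Dnmt3b and Hmga2. On the null-labelled arrays another probe of each of Bmi1, Dnmt3b and Hdac1 broke this order. By those probes LMPP minus HSC was -0.31 for Bmi1 and -0.24 for Dnmt3b, and CLP minus LMPP was 0.13 for Hdac1. By the brightest probes, Ep300, Kat2b and Tet2 were lowest in LMPP and highest in CLP in both genotypes, and Hdac7 and Tet1 had the order HSC above LMPP above CLP. The second probes of Tet2 and Tet1 did not keep these orders in either genotype. In all, 20 of the 41 genes (48.8%) had the same order in both genotypes by the brightest probe, beside 35.1% of genes well above background on all 6 arrays.

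**Figure D4:**
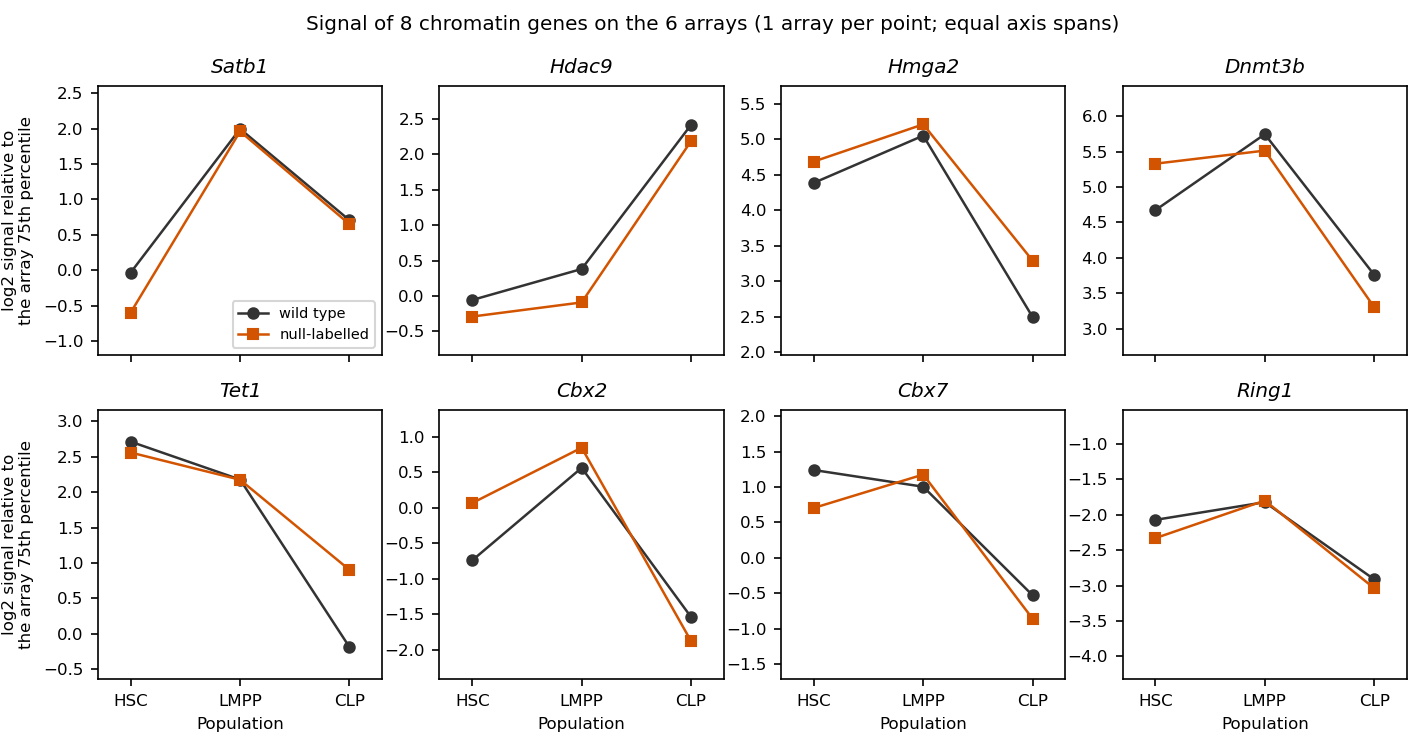
Levels (log2 relative to the array's 75th percentile) of 8 genes in HSC, LMPP and CLP, 1 panel per gene, with wild type and null-labelled arrays as separate lines and each point 1 array. Satb1 peaks in LMPP, Hdac9 is highest in CLP, and Hmga2, Dnmt3b, Tet1, Cbx2, Cbx7 and Ring1 are lowest in CLP, on the arrays of both genotypes.

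The promoters of the genes that passed between LMPP and CLP or between HSC and CLP are shown because these genes moved together into CLP or, for Hdac9, against the rest. All are from the RefSeq promoter table of GRCm38.p6, read in the sense of the gene, with CpG dinucleotides in capitals, and Cbx2 has no sequence shown. That of Hmga2 lies at chr10:120476420-120476719 on the minus strand, that of Dnmt3b at chr2:153649199-153649498 on the plus strand, that of Tet1 at chr10:62887275-62887574 on the minus strand, and that of Cbx7 at chr15:79932597-79932896 on the minus strand. Hdac9 has starts at chr12:34917046-34917345 on the minus strand and at chr12:34528840-34529139 on the minus strand.
Hmga2: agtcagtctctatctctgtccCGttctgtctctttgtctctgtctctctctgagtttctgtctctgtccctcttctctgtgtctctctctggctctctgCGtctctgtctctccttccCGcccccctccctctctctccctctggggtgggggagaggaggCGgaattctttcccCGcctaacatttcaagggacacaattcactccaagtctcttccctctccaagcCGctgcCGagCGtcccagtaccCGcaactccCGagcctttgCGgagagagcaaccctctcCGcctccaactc
Dnmt3b: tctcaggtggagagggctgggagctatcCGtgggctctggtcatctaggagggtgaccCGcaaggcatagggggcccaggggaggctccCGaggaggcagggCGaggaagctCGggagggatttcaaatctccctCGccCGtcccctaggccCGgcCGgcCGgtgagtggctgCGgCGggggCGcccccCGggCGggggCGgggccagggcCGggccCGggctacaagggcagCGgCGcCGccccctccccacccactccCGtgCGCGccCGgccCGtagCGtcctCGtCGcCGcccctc
Tet1: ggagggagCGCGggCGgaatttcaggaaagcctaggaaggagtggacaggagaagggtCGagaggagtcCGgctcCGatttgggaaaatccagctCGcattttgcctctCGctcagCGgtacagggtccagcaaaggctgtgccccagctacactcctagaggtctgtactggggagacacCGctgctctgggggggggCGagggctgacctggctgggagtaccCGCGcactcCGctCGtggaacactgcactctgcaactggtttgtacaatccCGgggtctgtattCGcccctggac
Cbx7: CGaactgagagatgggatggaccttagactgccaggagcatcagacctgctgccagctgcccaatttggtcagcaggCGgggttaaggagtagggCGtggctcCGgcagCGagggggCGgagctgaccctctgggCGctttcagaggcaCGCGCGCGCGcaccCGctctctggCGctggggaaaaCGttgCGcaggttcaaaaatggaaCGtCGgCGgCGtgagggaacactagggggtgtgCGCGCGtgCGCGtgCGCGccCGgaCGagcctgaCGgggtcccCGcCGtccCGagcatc
Hdac9, first start: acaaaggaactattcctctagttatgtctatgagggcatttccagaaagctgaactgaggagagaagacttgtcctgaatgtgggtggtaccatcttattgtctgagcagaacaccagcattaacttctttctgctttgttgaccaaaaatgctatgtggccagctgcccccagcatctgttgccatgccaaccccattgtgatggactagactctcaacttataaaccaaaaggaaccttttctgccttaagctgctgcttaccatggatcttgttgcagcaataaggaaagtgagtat
Hdac9, second start: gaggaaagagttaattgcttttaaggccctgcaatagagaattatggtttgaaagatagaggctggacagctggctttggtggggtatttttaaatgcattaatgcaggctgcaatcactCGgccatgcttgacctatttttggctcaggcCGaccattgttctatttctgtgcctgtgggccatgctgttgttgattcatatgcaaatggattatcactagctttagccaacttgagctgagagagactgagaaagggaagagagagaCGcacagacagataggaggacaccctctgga

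The promoters of the genes that fell hold 12 (Hmga2), 30 (Dnmt3b), 17 (Tet1) and 33 (Cbx7) CpG dinucleotides in 300 bases, and those of Hdac9, which rose, hold 0 and 3. The median of all 32851 promoters was 7. Taking each gene's richest start, the median was 32 over the 39 genes of the set with an entry and 8 over 27025 genes. The letters GGGCGG, the core of the GC box bound by SP1, were searched on both strands and occur in 35.7% of all promoters, 4 times in that of Dnmt3b, 3 times in the Satb1 promoter above, 1 time each in those of Hmga2, Tet1 and Cbx7, and in neither of Hdac9. The letters TATAAA occur in 13.6% of promoters and 1 time in the first start of Hdac9. These matches describe the letters only.

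A longer list of 117 other genes of the same complexes was read beside the set, 115 of them with a named probe. In the limma fit 0 of 113 passed for genotype, and 0 of 113 between LMPP and HSC. Between CLP and LMPP 2 of 113 passed (1.77%), a lower share than the 8.79% of all 13012 genes. The ISWI-associated subunit Baz1a rose and the PRC1 subunit Pcgf2 fell. Pcgf2 went the way of Cbx2 and Cbx7, with levels of -0.66, -0.82 and -3.49 (wild type HSC, LMPP, CLP) and -0.84, -0.57 and -3.6 (null label, same order). Between CLP and HSC, Baz1a and the condensin genes Smc2 and Smc4 were among those that rose, and Pcgf2 fell.

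In single arrays the widest genotype differences of this list were in CLP, where 10 of 113 were at least 2-fold higher and 4 at least 2-fold lower on the null-labelled array, beside 11.9% and 8.33% of all genes compared. Hdac8, a class I deacetylase that acts on cohesin, was furthest, at -4.12 in CLP and -1.09 in LMPP. Its levels were 1.39, 1.39 and 2.08 (wild type HSC, LMPP, CLP) and 1.56, 0.30 and -2.04 (null label, same order). Phf1, an accessory subunit of PRC2, was higher on the null-labelled arrays, by 2.05 in CLP and 1.74 in LMPP, and Phc1, a PRC1 subunit, by 1.92 in CLP. In HSC the count was 3 higher and 0 lower, against 8.42% and 5.85% of all genes compared, and in LMPP 2 higher and 2 lower, against 5.82% and 3.75%.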

How the data were processed

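The series holds 6 single-colour Agilent arrays, 1 per genotype and population, hybridised with Cy3-labelled cDNA amplified from 6.1 ng of total RNA. The authors deposited each array's scanner output, an intensity per spot on a linear scale made with Agilent Feature Extraction 10.10 per the submitters' processing notes. They also deposited a value table, which equals the processed intensity times a constant per array (5.71 to 8.77); what set the constants is unknown. Here 3671 control spots and 154 to 181 outlier spots per array were left out, log2 processed signal was centred on the array's 75th percentile, and repeat spots were averaged (median SD 0.0792 to 0.0886). Input this small needs strong amplification, which adds spread for rare transcripts, and the single array per group limits the precision. Probes were named through their accession in RefSeq's gene table (GRCm38.p6; 27235 of 55681 probes). The genes fitted by limma 3.58.1 (R 4.3.3; lmFit and eBayes, genotype plus population over all 6 arrays, 2 residual degrees of freedom) were the 13016 well above background on at least 3 arrays, less 4 with a missing array. Dimmer values were set to a floor, the lowest signal of the array that passed that mark, and p-values were Benjamini-Hochberg adjusted over all genes. The spread in that fit is how far a difference varies between arrays that may come from the same embryos. The script was tested on simulated data. Values on all 6 arrays are given for Satb1, for genes past 2-fold between genotypes and for genes called in the fit; of the further chromatin genes, those called and the 2 furthest each way could be named, with the levels of Pcgf2 and Hdac8 chosen after their values were seen. Not every call of that list is reported here. The genes and lists were chosen with earlier results of these data known. The alternatives were other centrings, quantile normalization, the deposited table's constants, normexp (offset 50, on the median signal in place of the planned mean signal, which the files used here do not list), the mean over probes, other detection filters and folds, an intensity trend, and leaving out a population.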

Additional observations from a re-analysis of the deposited data

Results flagged for a closer look

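Genes whose null minus wild type difference went opposite ways in 2 populations, each by more than 2 scanner errors, were singled out. There were 5 of the 41, and with 1 array per group the difference between populations was not tested. The share of all genes that meet this rule is not given here, so the count has no background to be read against. Ezh1 was at 1.21 in HSC and -1.48 in CLP, Arid1a at 0.71 and -0.94, Mta1 at 0.41 and -0.68, and Dnmt3b at 0.66 and -0.46. Rnf2 was at -0.65 in LMPP and 1.09 in CLP. The second probe of Arid1a gave 0.069 in HSC and 0.30 in CLP, so the opposite directions rest on the brighter probe. For Dnmt3b all 3 probes were above 0 in HSC and below 0 in CLP. Its 2 other probes gave 0.23 and 0.36 in HSC and -0.16 and -0.36 in CLP, each within 2 scanner errors.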

How the results depend on the processing

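No called result changed direction under any setting tried. Some values near 0 did: Satb1 null minus wild type in LMPP was 0.014 with the percentile over detected probes, 0.015 with the deposited constants and 0.0073 with normexp (-0.035 as reported), in CLP it was 0.03 with normexp (-0.056), all under the scanner error, and the set's HSC median was -0.023 with the percentile over detected probes (0.11). For genotype, the count past 2-fold in HSC was 0 with the mean over probes (1 by the brightest probe), 8 at 1.5-fold and 0 at 3-fold; in LMPP it was 1 at 1.5-fold (0 at 2-fold); in CLP it was 2 with normexp (4 as reported), 11 at 1.5-fold and 0 at 3-fold. Rnf2 and Tet1 in CLP fell under 2-fold with normexp. Genes called between CLP and LMPP were 10 with normexp, 9 when all 6 arrays had to be well above background, 10 with an intensity trend (5 as reported) and 0 without HSC; Satb1 and Tet1 were among those added by each of the first 3 settings; the 5 reported were called in every setting but the last, where 4 arrays remain and their adjusted p values lie between 0.0602 and 0.0796. Between CLP and HSC they were 7 with normexp, 8 with the trend, 1 with no floor on dim values (Hdac9) and 0 without LMPP (4 as reported); median centring gave 5, of which 2 were shared, quantile normalization 3, without Cbx7, and the mean over probes 4, with Dnmt3b in place of Tet1. Over all genes, 1144 were called between CLP and LMPP, but 2028 with normexp, 2078 with the trend and 0 without HSC. Between CLP and HSC 1155 were called, but 1977 with normexp, 2043 with the trend, 1792 with median centring, 765 with no floor and 0 without LMPP. Between LMPP and HSC, 7, 12 and 1 genes passed with normexp, the trend and median centring, none of the set. The cause of these shifts was not tested, other than that fewer arrays leave fewer degrees of freedom. Median centring moved the median of all genes between CLP and HSC from 0.023 to 0.41. The fit compares populations within genotype. No paired analysis by replicate number was possible because the labels give none.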
